A study of Mus musculus with 2 samples.

Results

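The genes described here are 53 transcription factors that build organs other than the interfollicular epidermis, among them homeobox, T-box, Gata, Sox, Fox, Iroquois and Ebf genes. They were taken by symbol from a list, out of 32285 genes in the count tables. That list was drawn up with earlier results of these data known. Their transcripts were followed in whole squamous tumours from the back of 5-month-old mice, profiled by droplet single-cell RNA sequencing of transcript 3' ends. The Ctrl-D library came from Eed flox/flox mice given ethanol, the solvent. The Eed iKO-D library came from mice with the same floxed alleles plus K14CrERT2, a Cre recombinase driven by the keratin 14 promoter, given hydroxytamoxifen on the back skin. The 4 daily tamoxifen doses began at postnatal day 50. Mice of both groups received the carcinogen DMBA topically each week for at most 20 weeks. Each group has 1 library, so genotype, the presence of Cre, tamoxifen and library cannot be told apart, and no p-value was computed. The number and sex of the animals behind each library are not given in the sources used here, and Cre acts only in cells that express keratin 14 or descend from them.

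Polycomb repressive complex 2 (PRC2), of which EED is a core subunit, trimethylates lysine 27 of histone H3. In differentiated tissues this mark covers many CpG-rich promoters of developmental transcription factors that belong to other lineages, and those genes stay silent or low. In skin, several of the factors listed here are also normal regulators: Iroquois, Dlx and Barx2 genes act in keratinocytes, Msx and Dlx genes in the hair matrix, and En1, Tbx15, Tbx18, Osr and Ebf genes in dermal fibroblasts. The comparison therefore asked which of these factors were present in keratinocytes of each library, and which sat instead in the neighbouring cells.

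The Ctrl-D library held 120500892 unique molecular identifiers (UMIs, counted transcript molecules) in 8039 barcodes and Eed iKO-D 289511009 in 22259, and 49 barcodes occurred in both. After filtering, 7393 and 21484 cells remained, with medians of 13037 and 3191 UMIs. Cells were clustered, and clusters were called "X-like" from marker genes. In Eed iKO-D 58.0% of cells, with a median of 2366 UMIs, lay in clusters that stayed unnamed, against 2.06% in Ctrl-D. Krt5/Krt14-high cells, called keratinocytes below, are cells of epithelial-like clusters in which Krt5 and Krt14 made up at least 0.5% of UMIs. Such cells numbered 4526 (Ctrl-D) and 2741 (Eed iKO-D), with 88236105 and 130624817 UMIs and medians of 16713.5 and 41328 UMIs per cell. All 13 epithelial markers were detected in them, at a summed 33124 and 35366 CPM, that is UMIs scaled to the same total in every class and library. Within the epithelial-like clusters, 394 and 183 cells lay between 0.4 and 0.6% of keratin UMIs, near the threshold. The gate does not separate tumour cells from hair follicle or other skin keratinocytes taken with the tumour. In Krt5/Krt14-high cells Eed itself went from 53.2 to 46.9 CPM. In fibroblast-like cells, where the Cre should be silent, it went from 27.0 to 23.5 CPM. Which exons the flox sites remove is not given in the sources used here, so 3' end counts do not show whether Eed was deleted.

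Promoter sequence was available from RefSeq (GRCm38.p6) for 34 of the 53 factors. Of these, 29 of 34 (85.3%) were CpG-rich, taken as at least 50% G and C with an observed-to-expected CpG ratio of at least 0.6 over 300 bases, against 34.1% of 27025 promoters of all genes. Their median GC content was 63.3%, and that of all genes 52.7%. The letters CCAAT were found on either strand in 20 of 34 (58.8%) against 37.9% of all promoters, TATAAA in 1 of 34 against 14.2%, and TGANTCA, the letters of an AP-1 site, in 1 of 34 against 7.93%. The 250 bases before the RefSeq start are shown for 3 factors, with every CG dinucleotide in capitals. They are Pax9 and Sox11, which stood at least 8-fold higher in the pooled keratinocytes of Eed iKO-D, and Dlx2, which stood lower. The windows lie at chr12:56695221-56695470 on the plus strand, chr12:27342719-27342968 on the minus strand and chr2:71546755-71547004 on the minus strand, all read 5′ to 3′, and no annotated exon overlaps them. The Pax9 window lies inside the gene as GENCODE gives it, which begins further upstream, so it precedes an internal start and not that of the longest model.
Pax9: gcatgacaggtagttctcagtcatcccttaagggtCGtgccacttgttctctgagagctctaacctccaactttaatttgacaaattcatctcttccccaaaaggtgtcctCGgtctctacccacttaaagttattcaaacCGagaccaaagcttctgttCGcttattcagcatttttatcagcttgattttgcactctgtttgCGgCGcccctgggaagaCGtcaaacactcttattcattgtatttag
Sox11: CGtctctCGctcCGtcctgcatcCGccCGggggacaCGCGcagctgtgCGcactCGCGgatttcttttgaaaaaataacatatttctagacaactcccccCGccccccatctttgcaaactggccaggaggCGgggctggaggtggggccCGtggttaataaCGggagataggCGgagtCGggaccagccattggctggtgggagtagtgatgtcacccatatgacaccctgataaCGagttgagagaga
Dlx2: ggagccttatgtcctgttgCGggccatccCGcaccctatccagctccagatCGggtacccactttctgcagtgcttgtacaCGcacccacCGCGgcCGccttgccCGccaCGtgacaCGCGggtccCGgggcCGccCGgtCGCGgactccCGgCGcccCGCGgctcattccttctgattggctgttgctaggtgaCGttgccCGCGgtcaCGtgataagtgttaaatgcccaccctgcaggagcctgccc
The Pax9 window held 7 CG dinucleotides, the Sox11 window 17 and the Dlx2 window 24. Sox11 and Dlx2 met the CpG-rich definition. The Pax9 window, with 47.0% G and C over its 300 bases, did not, which says nothing of the gene's upstream start.

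In Krt5/Krt14-high cells 37 of the 53 factors had at least 20 UMIs in both libraries together. At a 1.5-fold difference in CPM, 19 of the 37 were higher in Eed iKO-D, 11 were lower and 7 lay within 1.5-fold. Among all 19147 genes with that many UMIs, 40.8% were higher and 15.2% were lower. The factors gave 51.4% and 29.7%. Of the 19 higher factors 10, Foxp1 among them, stood below their own level in immune-like cells of Eed iKO-D, the measure of free RNA used here. For Foxp1 that level cannot measure free RNA. In Ctrl-D it stood at 329 CPM in T cell-like cells, against 145 CPM in Krt5/Krt14-high and 210 CPM in fibroblast-like cells. Of the 17 measurable factors whose highest other class was at most 3 times the keratinocyte level, 6 were higher and 4 lower. The share of all genes under that rule is not given here. The median log2 ratio was 0.62 for the factors and 0.38 for all genes, so a typical gene was itself 1.30-fold higher in Eed iKO-D. With ratios centred on the median of all genes, 17 factors were higher and 13 lower, against 26.7% and 25.7% of all genes. Of the 19 higher factors, 14 were under 2 CPM in both libraries. Among the 16 factors that reached 2 CPM in either library, 5 were higher, 6 lower and 5 within 1.5-fold. The share of all genes at that level is not given here. These counts and the intervals given with ratios cover counting error only (95% intervals, exact for Poisson counts and for their ratio), and differences between tumours or mice of one group were not measured.

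The class pools clusters that the libraries hold in different numbers, so the factors were also compared inside the 5 epithelial-like clusters with at least 50 Krt5/Krt14-high cells in each library, called shared clusters below. In cluster 0, 12 of 20 measurable factors were higher and 3 lower, against 39.5% and 13.3% of all genes there. In cluster 1 these were 7 and 2 of 14, against 49.8% and 11.7%, and in cluster 2 they were 6 and 8 of 17, against 31.0% and 18.7%. Cluster 4 had 6 and 5 of 17, against 31.7% and 21.2%. Cluster 10 had 14 and 6 of 29, against 40.1% and 11.6%. The factors' median log2 ratio ran from -0.24 in cluster 2 to 0.79 in cluster 0.

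**Figure D1:**
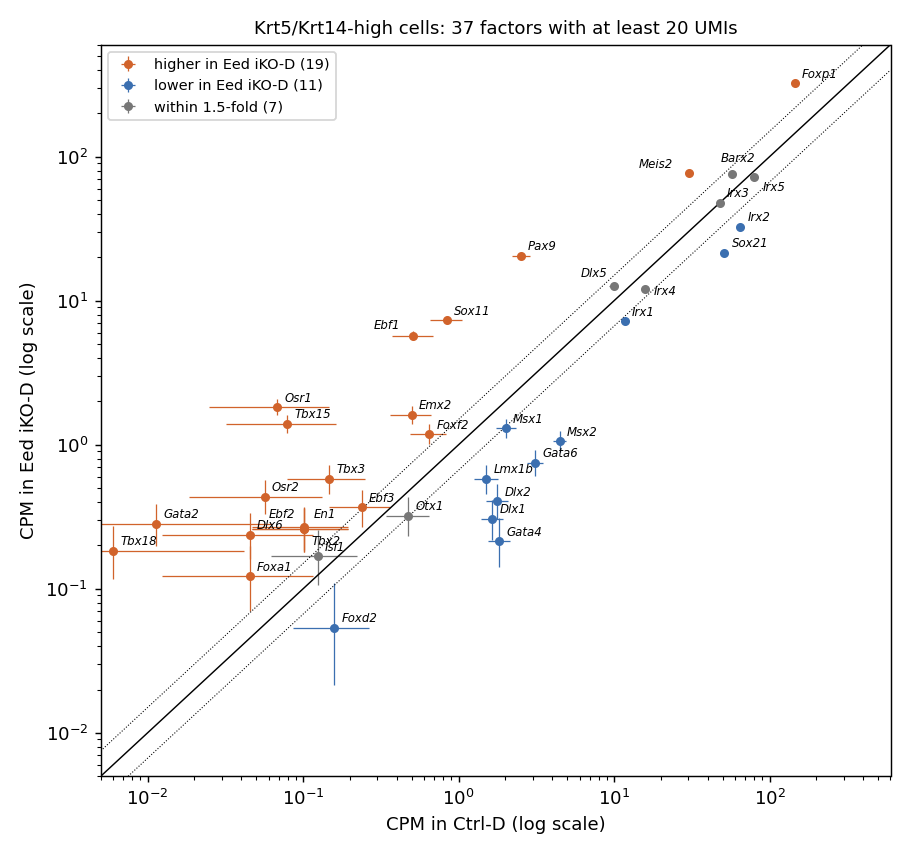
Level of the 37 factors with at least 20 UMIs in Krt5/Krt14-high cells, Ctrl-D on the horizontal and Eed iKO-D on the vertical axis, both in CPM on log scales; bars are exact 95% Poisson intervals, the solid line marks equal levels, dotted lines mark 1.5-fold, and Tbx18, with 0 UMIs in Ctrl-D, is drawn near the left edge. The 8 factors that reach 20 CPM sit at the upper right, where Foxp1, Meis2 and Pax9 lie above the lines and Sox21 and Irx2 below.

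The factors of ectodermal appendages, jaw and teeth (9 genes) were all measurable, with 3 higher, 4 lower and 2 within 1.5-fold. Pax9 (ENSMUSG00000001497, chr12:56691767-56712822, plus strand) is needed for teeth, palate and tongue papillae. Its UMIs numbered 222 in the control library against 2686, or 2.52 and 20.6 CPM, an 8.17-fold higher level (interval 7.12 to 9.41). Among Krt5/Krt14-high cells with at least 1500 UMIs, a Pax9 UMI was found in 3.60% of those of Ctrl-D and 42.2% of those of Eed iKO-D. When each of these cells was thinned to 1500 UMIs those shares became 0.268% (12 of 4472 cells) and 2.82% (77 of 2734). In macrophage- or monocyte-like cells, which should lack the gene, they were 0 of 123 and 0.314% (3 of 956). The libraries differed in their mix of clusters: 75.5% of the Pax9 UMIs of Eed iKO-D lay in cluster 10, which held 1547 of its Krt5/Krt14-high cells but 101 of those in Ctrl-D. The part of cluster mix in the class ratio was not tested. Within clusters the gap was smaller. Pax9 rose from 4.51 to 10.0 CPM in cluster 0, from 11.9 to 27.6 in cluster 1, from 0.832 to 3.03 in cluster 2 and from 6.81 to 23.3 in cluster 10, which is 2.22- to 3.64-fold in the 4 of 5 shared clusters with at least 20 UMIs. Pax9 overlaps Slc25a21, a mitochondrial carrier gene on the opposite strand, which went from 5.75 to 115 CPM in the class and from 98.1 to 152 CPM in cluster 10. Whether the counting used strand is not given in the sources used here, and without it reads from the 2 genes cannot be told apart.

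Foxp1 (ENSMUSG00000030067, chr6:98925338-99522721, minus strand), a forkhead repressor found in many tissues, was the most abundant factor of the set in keratinocytes. Its level went from 145 to 323 CPM, 2.23-fold higher (2.19 to 2.28), and was higher in 5 of 5 shared clusters, by 2.27- to 4.20-fold. The gene is not particular to keratinocytes in these data. It was at 210 and 688 CPM in fibroblast-like cells, 3.28-fold higher, and at 277 and 402 CPM in pooled immune-like cells. Barx2 (ENSMUSG00000032033, chr9:31846044-31913462, minus strand), a homeobox factor of epithelia and muscle, stood at 57.2 and 75.6 CPM, 1.32-fold apart. Barx2 was higher in 4 shared clusters and lower in cluster 2, where it went from 36.9 to 21.6 CPM. Dlx5, a distal-less factor of craniofacial and limb ectoderm, stood at 9.93 and 12.6 CPM. Its chromosomal neighbour Dlx6, 9.24 kb away, had 4 and 31 UMIs, so it was barely present in either library.

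The remaining distal-less and Msx genes were lower in the class as a whole. Dlx1 had 145 UMIs (1.64 CPM) in the control library against 40 (0.306 CPM), a ratio of 0.186 (0.128 to 0.266). Dlx2, 9.43 kb from Dlx1 on chromosome 2, had 156 UMIs (1.77 CPM) and 53 (0.406 CPM), a ratio of 0.229 (0.165 to 0.315). Both neighbours were lower together, and Dlx1 was lower in 4 of the 4 shared clusters where it reached 20 UMIs, Dlx2 in 3 of 4. Msx2, a BMP target of hair matrix and skull, fell from 4.48 to 1.06 CPM, a ratio of 0.236 (0.193 to 0.287), and Msx1 stood at 2.02 and 1.31 CPM. Of the 4 shared clusters where Msx1 reached 20 UMIs, it was lower in 3 and higher in cluster 0, from 1.30 to 2.45 CPM. Msx2 was lower in 3 of 5 shared clusters and within 1.5-fold in clusters 0 and 4. Without cluster 6, a Ctrl-D cluster led by Cck that held 366 Krt5/Krt14-high cells there and 0 in Eed iKO-D, the Msx1 log2 ratio went from -0.62 to -0.09. In that cluster Msx1 stood at 9.33 CPM and Msx2 at 12.6 CPM, the highest of any epithelial-like cluster for both. The Msx2 log2 ratio was -1.83 without it.

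These lower genes were most abundant elsewhere in the Ctrl-D tumour. Of the 34 factors with enough UMIs to be placed in Ctrl-D, 8 were highest in hair keratin-like cells. That cluster was led by Krt25, Krt35, Krt71 and Krt28. Of those 8, 6 were lower in Krt5/Krt14-high cells of Eed iKO-D, 1 was higher and 1 within 1.5-fold. Among all 3485 measured genes placed in that class by the same rule, 24.6% were higher and 17.4% lower. Dlx1 reached 19.7 CPM, Dlx2 52.6 CPM, Msx1 71.1 CPM and Msx2 92.4 CPM in hair keratin-like cells of Ctrl-D. That class had 512 cells in the control tumour library against 9. Its marker list was at 0.452% of its own level in Krt5/Krt14-high cells of Ctrl-D (10.3 CPM, with 6 of 7 markers detected) and at 0.543 CPM in Eed iKO-D. Dlx1, Dlx2, Msx1 and Msx2 in Ctrl-D keratinocytes were at 8.34, 3.36, 2.84 and 4.84% of their hair keratin-like levels, above the share of the markers. The part of hair keratin-like RNA in their ratios was not tested further.

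**Figure D2:**
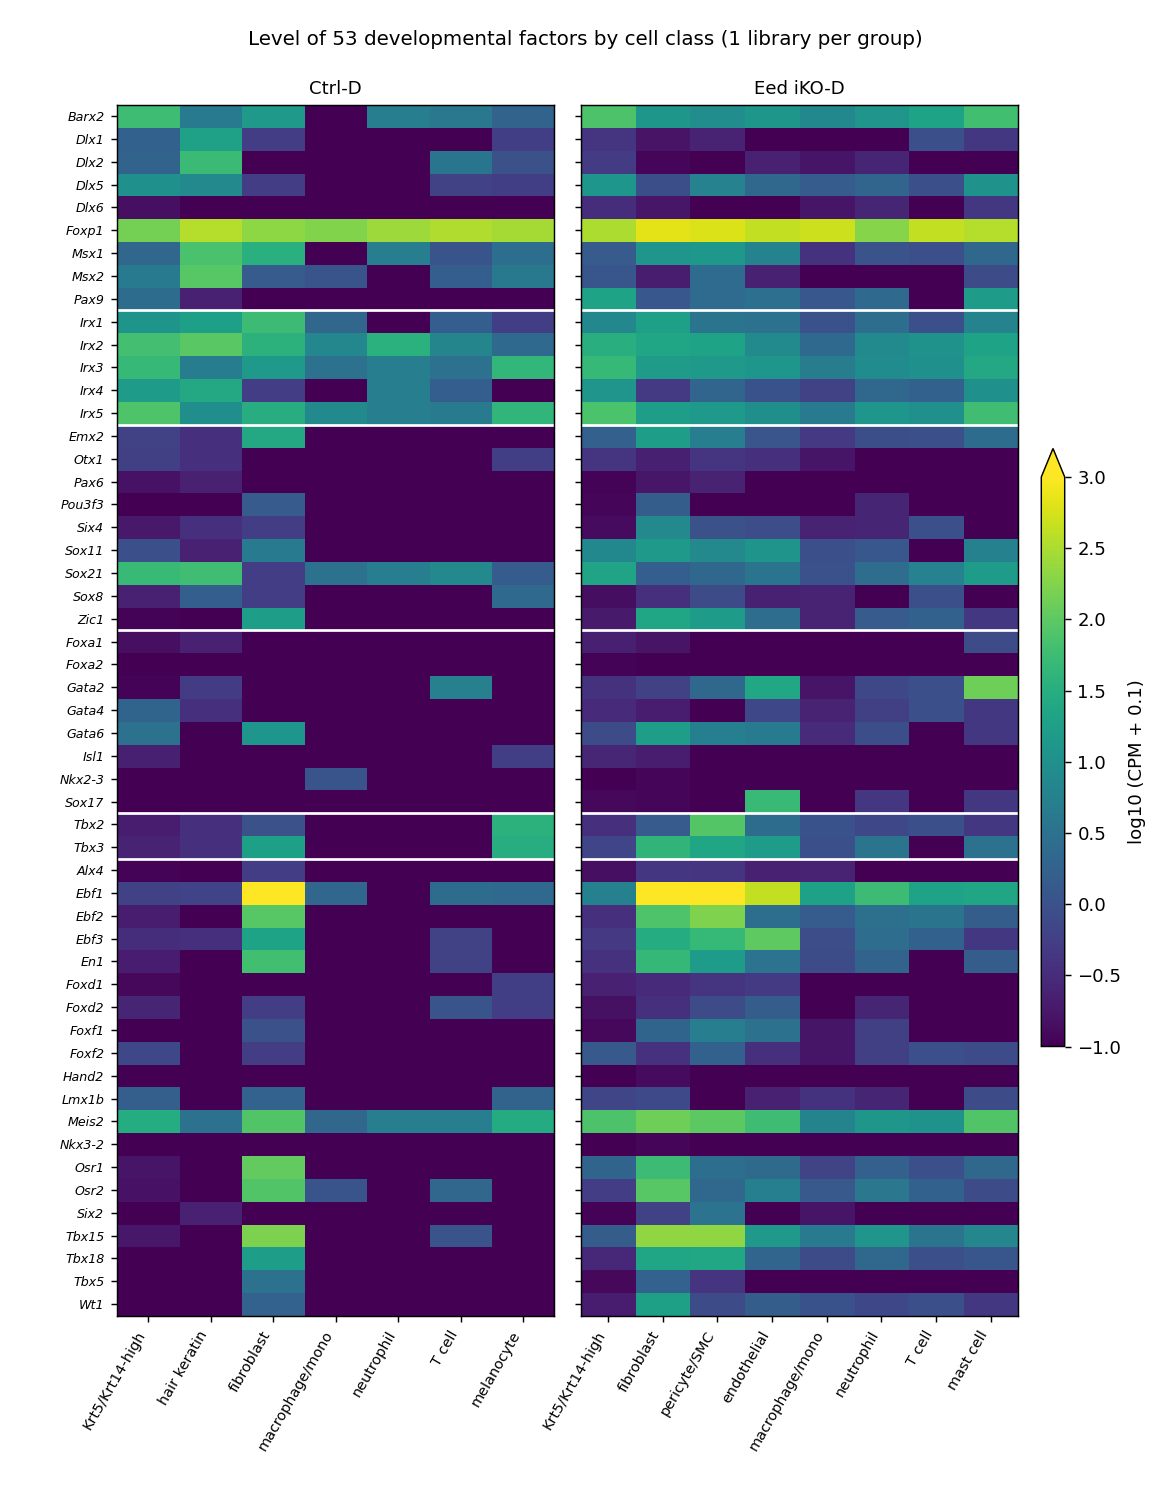
Level of all 53 factors in each cell class with at least 50 cells, as log10 of CPM plus 0.1, Ctrl-D left and Eed iKO-D right; white lines separate, from the top, factors of ectodermal appendages, Iroquois factors, neural and sensory factors, endoderm and heart factors, the Tbx2 subfamily, and factors of limb, mesenchyme and dermis. The Iroquois block is bright in Krt5/Krt14-high cells of both libraries, whereas most of the lowest block is bright in fibroblast-like cells and dark in keratinocytes.

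The 5 Iroquois genes, homeobox factors that pattern the nervous system, limb and heart and are active in epidermis, were present in both libraries at levels well above those of immune-like cells. None was higher in Eed iKO-D, 2 were lower and 3 lay within 1.5-fold. Irx5 (ENSMUSG00000031737, chr8:92357625-92376286, plus strand) stood at 79.3 and 72.9 CPM, a ratio of 0.919 (0.891 to 0.948). Irx3 (ENSMUSG00000031734, chr8:91798525-91802067, minus strand) stood at 48.0 and 47.8 CPM, a ratio of 0.997 (0.959 to 1.04). Both lie on chromosome 8, and both were the least different of the abundant factors. Irx5 was within 1.5-fold in 5 of 5 shared clusters, and Irx3 was higher in 3 of 5, by up to 1.77-fold. In immune-like cells Irx5 was at 5.57 and 7.12 CPM and Irx3 at 3.09 and 6.10 CPM.

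Of the 3 Iroquois genes of chromosome 13, Irx1 and Irx2 were lower in the class as a whole and Irx4 lay within 1.5-fold. Irx2 (ENSMUSG00000001504, chr13:72628820-72634198, plus strand) went from 64.6 to 32.6 CPM, a ratio of 0.505 (0.485 to 0.525). Irx1 went from 11.7 to 7.20 CPM, 0.614 (0.562 to 0.671), and Irx4 from 15.8 to 12.0 CPM, 0.758 (0.705 to 0.815). Inside the shared clusters this decline of Irx2 was not seen: it was higher in 1 of 5 clusters, lower in 0, and at 125 and 126 CPM in cluster 4, its highest. Irx1 and Irx4 were lower in 2 clusters each. The libraries differ in which clusters they hold. Cluster 4 had Krt15, Lhx2 and Lgr5, genes of hair follicle stem cells, among its leading genes. It supplied 30.0% of the Irx2, 53.9% of the Irx1 and 48.8% of the Irx4 UMIs of Ctrl-D keratinocytes. It held 943 Krt5/Krt14-high cells there against 68 in Eed iKO-D. With ratios centred on the median of all genes, Irx4 was also lower (log2 ratio -0.78), as it was when each cell counted equally (-0.76). In fibroblast-like cells 3 of the 5 were lower: Irx1 went from 54.9 to 18.2 CPM, Irx2 from 37.5 to 22.6 and Irx5 from 30.5 to 17.1.

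Of the 9 neural and sensory factors, 4 had at least 20 UMIs, with 2 higher, 1 lower and 1 within 1.5-fold. Sox21 (ENSMUSG00000061517, chr14:118233232-118237030, minus strand), a SoxB2 factor of neural progenitors and also of the hair shaft cuticle, went from 51.3 to 21.5 CPM, a ratio of 0.419 (0.400 to 0.440). It was not uniformly lower: it was higher in cluster 0, where it rose from 39.4 to 70.3 CPM, and lower in 3 other shared clusters. In cluster 10, where most Eed iKO-D keratinocytes lay, it went from 33.7 to 16.7 CPM. Sox11, a SoxC factor of developing neurons and embryonic epidermis, had 74 UMIs on the control side against 960, or 0.839 and 7.35 CPM, 8.76-fold higher (6.91 to 11.3). Inside the shared clusters with enough UMIs Sox11 was not higher. It stood at 9.87 and 8.08 CPM in cluster 10, a ratio of 0.818, and at 1.64 and 0.489 CPM in cluster 0, which are the 2 shared clusters where it reached 20 UMIs. In cluster 1 it had 0 and 17 UMIs, the latter in 13 cells, and over suprabasal-like clusters alone its log2 ratio was 1.78. Cluster 10 supplied 73.2% of its UMIs in Eed iKO-D. Another 24.3% came from cluster 13, a cluster led by Ltf and Arg1 with 311 Krt5/Krt14-high cells, all of Eed iKO-D, where Sox11 reached 19.9 CPM.

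Emx2, a homeobox factor of the forebrain and urogenital tract, had 44 and 211 UMIs, 0.499 and 1.62 CPM, 3.24-fold higher (2.33 to 4.59). It stayed at 9.15% of its fibroblast-like level in Eed iKO-D keratinocytes, while fibroblast markers were at a median of 0.563% of theirs. Otx1, of the forebrain and ear, had 42 UMIs in each library. Pax6, Six4, Sox8, Zic1 and Pou3f3 stayed under 20 UMIs, and no level is read from them.

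**Figure D3:**
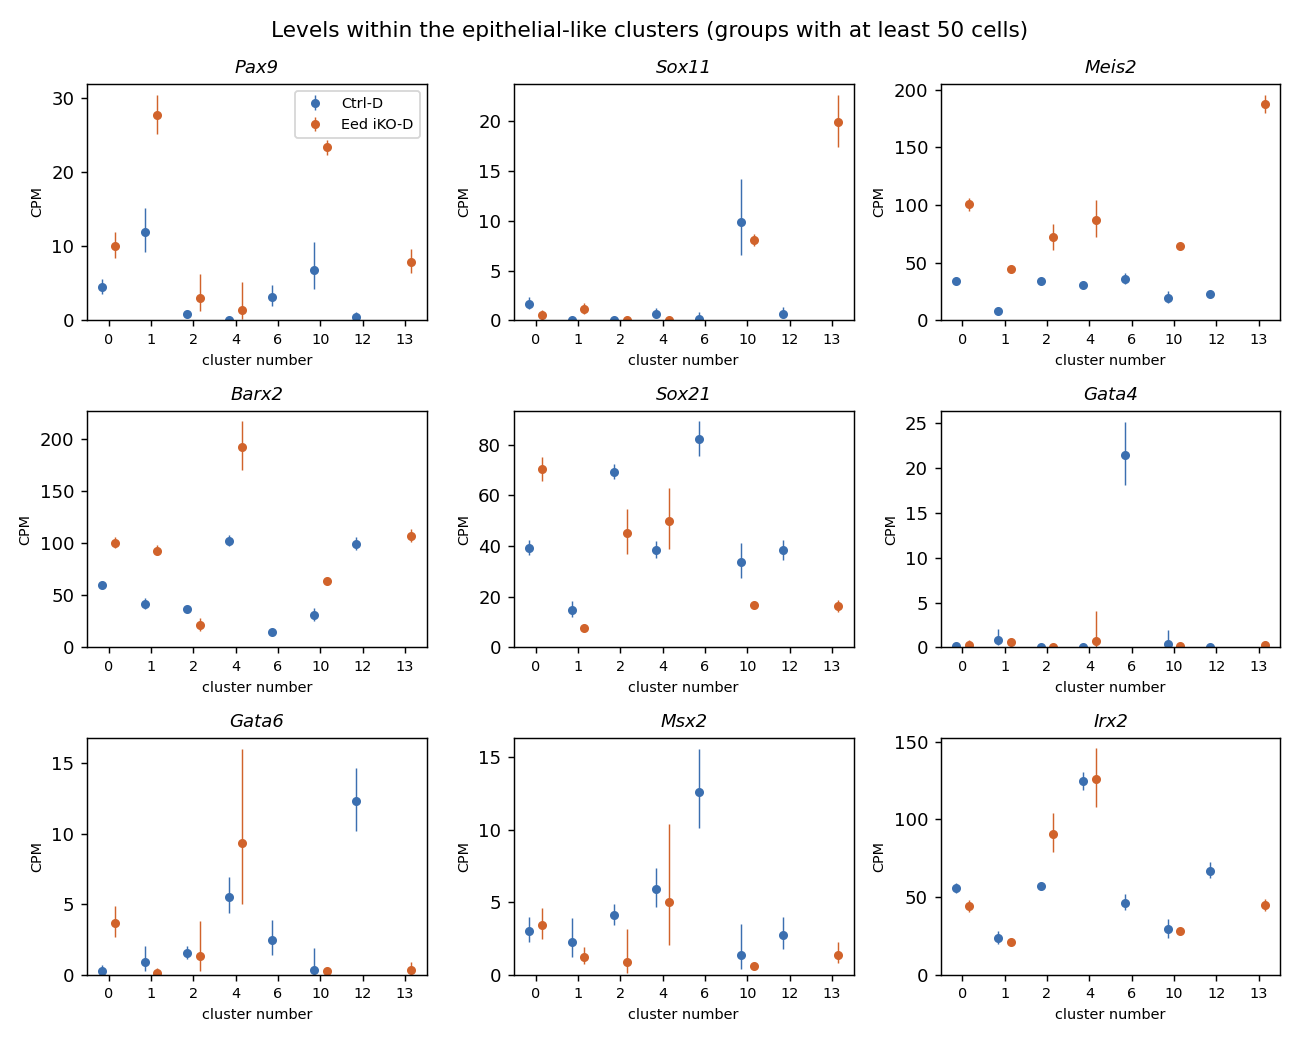
CPM of 9 factors in the Krt5/Krt14-high cells of each epithelial-like cluster, Ctrl-D in blue and Eed iKO-D in orange, drawn where a library had at least 50 cells in the cluster; bars are exact 95% Poisson intervals, and a point at 0 has no bar. Pax9 and Meis2 are higher in Eed iKO-D wherever both libraries have points, Sox11 is at similar levels in cluster 10 and highest in cluster 13, and Gata4 rises above 1 CPM only in cluster 6 of Ctrl-D.

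Among the 8 factors of endoderm, gut and heart, 2 were higher, 2 lower and 1 within 1.5-fold, and 3 stayed under 20 UMIs. Gata4, a factor of heart and gut, had 161 and 28 UMIs, or 1.82 and 0.214 CPM, a ratio of 0.117 (0.0757 to 0.176). Of its Ctrl-D UMIs 92.5% lay in cluster 6, at 21.4 CPM, and it was at most 0.876 CPM in any other Ctrl-D cluster. Gata6, a factor of endoderm and of the sebaceous duct, went from 3.11 to 0.750 CPM, a ratio of 0.242 (0.190 to 0.305). In Ctrl-D 44.5% of its UMIs lay in cluster 12, a cluster led by Lor with 482 Krt5/Krt14-high cells of Ctrl-D against 16. Inside shared clusters Gata6 was lower in 0 and higher in 2, from 0.282 to 3.67 CPM in cluster 0 and from 5.53 to 9.36 CPM in cluster 4. Gata2, a factor of blood progenitors and endothelium, had 1 and 37 UMIs, too few in Ctrl-D for a ratio better than its interval of 4.22 to 1014, and 26 of the 37 lay in 1 cell of cluster 1, so the count as higher rests on that cell. At 0.283 CPM in Eed iKO-D it equalled its level in immune-like cells (0.279 CPM). Isl1 had 11 and 22 UMIs, and Foxa1, a pioneer factor of endoderm, had 4 and 16, with a ratio of 2.70 whose interval (0.872 to 11.1) spans 1. Foxa2, Sox17 and Nkx2-3 stayed at 3 UMIs or fewer in both libraries.

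The 20 factors of limb, mesenchyme and dermis were mostly higher where measurable: 12 had at least 20 UMIs, 10 of them higher and 2 lower, and their median log2 ratio was 1.34. Only Meis2 was abundant. Meis2 (ENSMUSG00000027210, chr2:115863064-116065839, minus strand), a cofactor of Hox proteins in limb and face, had 2679 and 9997 UMIs. It went from 30.4 to 76.5 CPM, 2.52-fold higher (2.42 to 2.63), in 5 of 5 shared clusters, by 2.12- to 5.25-fold, and reached 188 CPM in cluster 13. It was also at 81.5 and 131 CPM in fibroblast-like cells, and at 4.02 and 8.47 CPM in immune-like cells, so the keratinocyte level was 7.55 and 9.03 times the immune-like one.

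The other higher factors of this group were low and were mostly fibroblast genes. Ebf1, an early B cell and mesenchymal factor, had 45 and 745 UMIs, 0.510 and 5.70 CPM, 11.2-fold higher (8.27 to 15.5). Tbx15, a factor of limb and dermis, had 7 and 183 UMIs, 17.7-fold higher (8.40 to 44.5). Tbx18, of the dermal papilla, had 0 and 24 UMIs, at least 5.40-fold higher when Ctrl-D is set to 3 UMIs for the whole class. Osr2 had 5 and 57 UMIs, En1, the engrailed factor of dorsal dermis, had 9 and 35, Ebf2 had 9 and 34, and Ebf3 had 21 and 48. The Tbx2 subfamily, repressors of limb, heart and melanocytes, showed the same low range, with 9 and 34 UMIs of Tbx2 and 13 and 76 of Tbx3.

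Fibroblast RNA moved with these values. The 10 fibroblast markers in Krt5/Krt14-high cells, all detected in both libraries, summed to 26.7 and 296 CPM. They were at a median of 0.0555% (range 0.0228 to 0.385%) of their fibroblast-like level in Ctrl-D. In Eed iKO-D the median was 0.563% (0.367 to 1.25%). Ebf1 was at 0.0468 and 0.412% of its fibroblast-like level, Tbx15 at 0.0491 and 0.639%, En1 at 0.165 and 0.577%, Osr2 at 0.0695 and 0.478% and Ebf2 at 0.110 and 0.332%. These lay inside the range of the markers in both libraries, except Ebf2 in Eed iKO-D, which lay below it. In immune-like cells of Eed iKO-D, which should lack these factors, Ebf1 stood at 29.8 CPM and Tbx15 at 6.52 CPM, both above their keratinocyte levels, as were En1 (0.977 CPM), Ebf2 (1.91 CPM) and Osr2 (1.95 CPM). The same holds for Tbx18 (1.12 CPM in immune-like cells), Ebf3 (1.35 CPM), Tbx2 (0.838 CPM) and Tbx3 (1.54 CPM). Tbx2 (11.7 and 20.2%) and Tbx3 (0.786 and 1.39%) lay above the marker range in both libraries, Ebf3 (1.14 and 1.23%) in Ctrl-D only. Tbx18 (0 and 0.809%) lay inside it in Eed iKO-D. Immune-like cells of Eed iKO-D held the fibroblast markers at a median of 2.61%, above the 0.563% of keratinocytes. A keratinocyte level below the immune-like one therefore does not settle these 9 factors. No rise of expression is read from them. Of 14 factors that were highest in fibroblast-like cells of Ctrl-D, 11 were higher in Krt5/Krt14-high cells of Eed iKO-D, 2 were lower and 1 was under 20 UMIs. Among all 2588 measured genes placed there by the same rule, 44.9% were higher and 16.0% lower, and all 10 fibroblast markers had a larger share of their fibroblast-like level in Eed iKO-D.

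**Figure D4:**
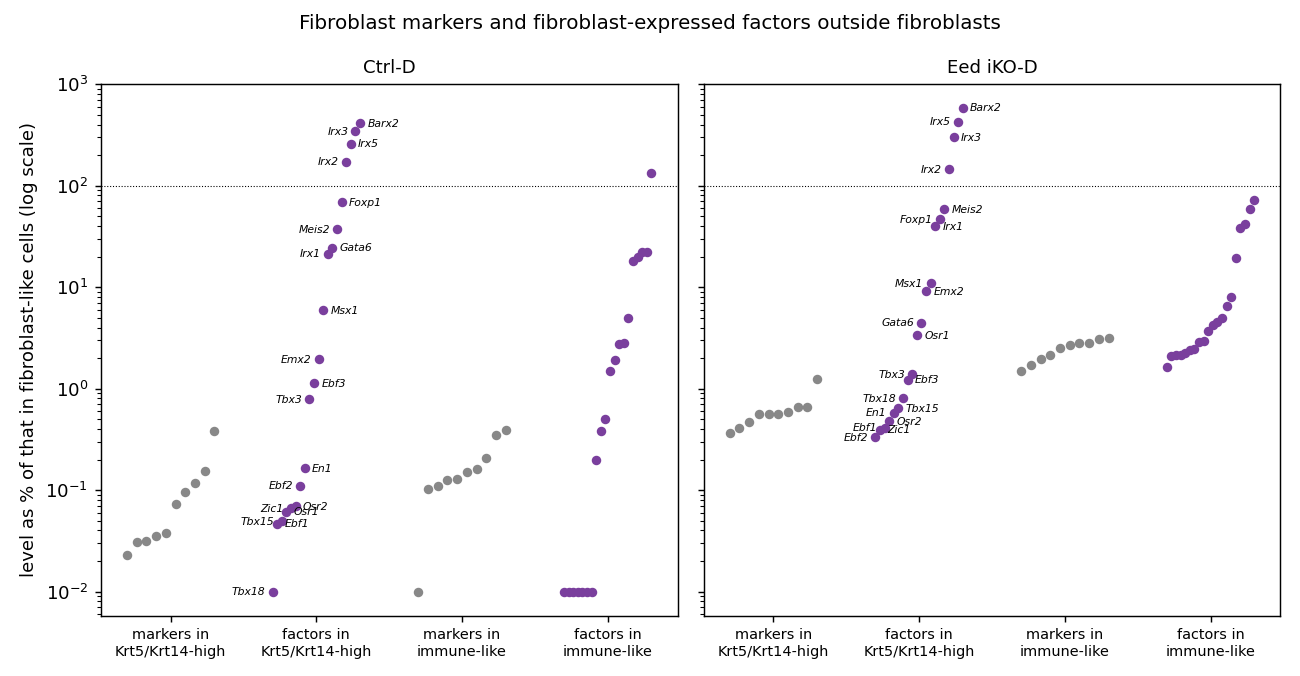
Level outside fibroblasts as a percentage of the level in fibroblast-like cells of the same library (log scale), for 10 fibroblast marker genes in grey and for the factors expressed in fibroblasts in purple, in Krt5/Krt14-high cells and in pooled macrophage-, neutrophil- and T cell-like cells; genes with 0 UMIs are drawn at 0.01%. In Eed iKO-D keratinocytes Ebf1, Ebf2, En1, Osr2 and Tbx15 lie at the height of the markers or, for Ebf2, just under it, while Osr1, Emx2, Meis2, Barx2 and the Iroquois genes lie above them.

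Osr1, an odd-skipped factor of kidney and limb mesoderm, differed from that pattern. It had 6 and 238 UMIs, 0.0680 and 1.82 CPM, a ratio of 26.8 (12.1 to 73.7), and stood at 3.35% of its fibroblast-like level in Eed iKO-D. Of the 238 UMIs, 73.5% lay in cluster 13. There Osr1 reached 15.0 CPM, or 27.5% of its fibroblast-like level, while the fibroblast markers in that cluster were at a median of 0.717% (0.321 to 1.37%). In the other clusters of Eed iKO-D with at least 50 cells Osr1 was at 0.794 to 1.32% of its fibroblast-like level. In fibroblast-like cells it was lower in Eed iKO-D, at 111 and 54.5 CPM, a ratio of 0.490 (0.432 to 0.559). Foxf2, a forkhead factor of gut and palate mesenchyme, had 57 and 155 UMIs, 1.84-fold higher (1.35 to 2.53), although it was at 0.436 CPM (1 UMI) and 0.277 CPM (18 UMIs) in fibroblast-like cells. In Ctrl-D 50.9% of its UMIs lay in cluster 6 and in Eed iKO-D 80.6% lay in cluster 10. Lmx1b, which patterns the dorsal limb, was lower, at 1.51 and 0.582 CPM, a ratio of 0.386 (0.287 to 0.515), and cluster 6 supplied 51.9% of the Ctrl-D count. Of the 2 shared clusters where Lmx1b reached 20 UMIs, it was lower in cluster 4 and counted as higher in cluster 10. In cluster 10 it had 0 UMIs in 101 Ctrl-D cells and 61 in Eed iKO-D, so no ratio is given. Foxd2 had 14 and 7 UMIs. Six2, Tbx5, Foxd1, Foxf1, Alx4, Wt1, Hand2 and Nkx3-2 stayed under 20 UMIs. Hand2, Nkx3-2 and Nkx2-3 had 0 in both libraries, which bounds each below 0.0418 CPM in Ctrl-D and 0.0282 CPM in Eed iKO-D.

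Against immune-like cells as a measure of free RNA, with immune counts under 3 UMIs set to 3, 11 of 24 measurable factors in Ctrl-D and 14 of 37 in Eed iKO-D were at least 3 times as high in Krt5/Krt14-high cells, compared with 9.43% and 15.5% of all genes. The epithelial markers themselves were at 12.5 and 12.6% of their keratinocyte level in immune-like cells. In both libraries 10 factors met it: Sox21, Dlx5, Msx2, Meis2, Barx2 and all 5 Iroquois genes. Gata6 met it in Ctrl-D, and Pax9, Sox11, Foxf2 and Emx2 in Eed iKO-D. In Ctrl-D these 4 had 0 UMIs in immune-like cells, where 3 UMIs are too high a floor to show a 3-fold gap at this depth. The Krt5/Krt14-high class was the highest class for 8 of 34 factors in Ctrl-D and for 11 of 48 in Eed iKO-D, which included Pax9, Barx2, Irx3 and Irx5 in both. Fibroblast-like cells were highest for 14 and 17. In Eed iKO-D pericyte- or smooth muscle-like cells were highest for 9, with 83.5 CPM of Tbx2 and 2551 CPM of Ebf1, and endothelial-like cells led Sox17, the endothelial SoxF factor, with 48.8 CPM. Tbx2 (36.8 CPM) and Tbx3 (30.6 CPM) were highest in melanocyte-like cells of Ctrl-D, a class with 248 cells there and 7 in Eed iKO-D. The mast cell-like class of Eed iKO-D had 131 CPM of Gata2, a mast cell factor, but its epithelial markers were at 71.4% of the keratinocyte level. Its Pax9 (15.5 CPM) and Barx2 (62.1 CPM) are not read as mast cell expression.

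Fibroblast-like cells, in which the keratin 14 promoter should be silent, numbered 247 and 2408. Of 35 factors with at least 20 UMIs there, 12 were higher in Eed iKO-D, 7 lower and 16 within 1.5-fold, against 31.8% and 19.8% of 17146 genes, so the shares lay near the background. Six2, Gata2 and Pax9, counted as higher, had 0 UMIs in Ctrl-D. With Ctrl-D set to 3 UMIs their ratios were 0.400, 0.400 and 0.870, so the depth there does not show a rise. Intervals spanned 1 for Sox21, Dlx5 and Foxf1 among the higher factors and for Tbx5 and Lmx1b among the lower. Keratinocyte RNA moved with some of these counts: the epithelial markers in fibroblast-like cells were at 1.71% of their keratinocyte level in Ctrl-D and at 5.80% in Eed iKO-D. Pax9 (0 and 74 UMIs), Sox21 (1 and 96) and Dlx5 (1 and 53), all counted as higher, stood in Eed iKO-D at 5.53, 6.86 and 6.44% of their keratinocyte levels. The part of keratinocyte RNA in these ratios was not tested. The median log2 ratio was 0.41 for the factors and 0.13 for all genes. Wt1, a mesothelial and kidney factor, went from 1.74 to 18.4 CPM, 10.5-fold higher (4.11 to 38.8) from 4 UMIs in Ctrl-D. Six4 went from 1 UMI to 7.47 CPM, and Tbx3 from 18.7 to 41.8 CPM. Msx1 went from 34.0 to 12.0 CPM, a ratio of 0.354 (0.281 to 0.453). The main dermal factors Ebf1 (1090 and 1385 CPM), Tbx15 (162 and 219 CPM) and En1 (61.9 and 46.4 CPM) lay within 1.5-fold.

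Gene length moved with the ratio in all 3 cell classes examined. For genes shorter than 10 kb the median log2 ratio in Krt5/Krt14-high cells was 0.00091, and for genes of at least 100 kb it was 0.85, with 64.0% of those genes higher. The same medians were -0.19 and 0.60 in fibroblast-like cells and -0.54 and 0.44 in T cell-like cells, which do not derive from keratin 14-expressing cells. Of the factors that were higher, Foxp1 (597 kb), Ebf1 (391 kb), Meis2 (203 kb) and Ebf2 (198 kb) are long genes. Pax9 (21.1 kb) and Sox11 (8.31 kb) are short. Of the 11 lower factors 8 are shorter than 10 kb, and Lmx1b (79.5 kb), Gata4 (72.8 kb) and Gata6 (33.6 kb) are not. Of the 19 higher factors 8 are also shorter than 10 kb. The part of gene length in these ratios was not tested.

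**Figure D5:**
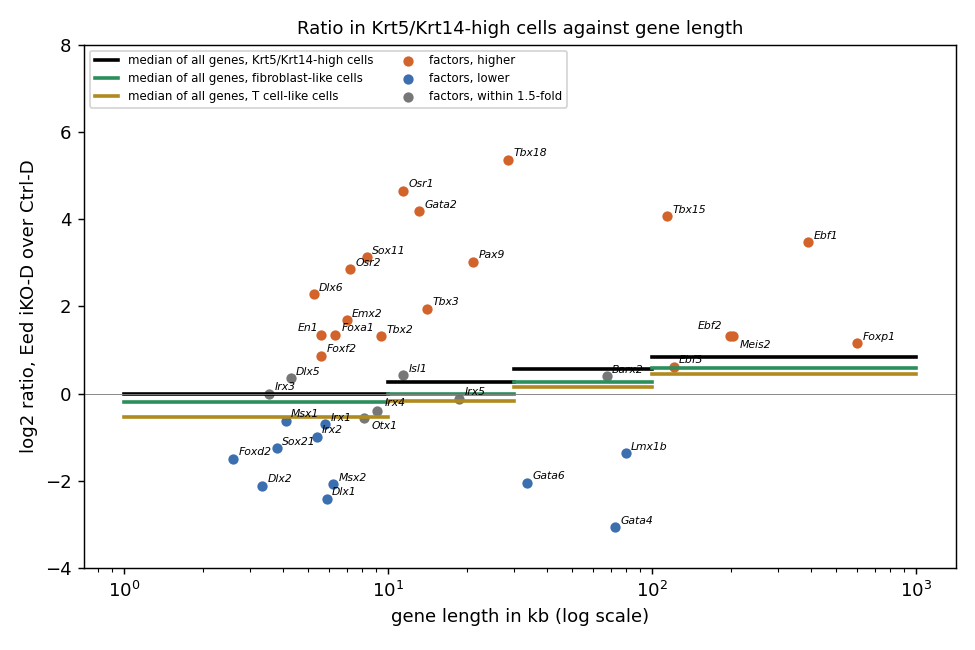
Log2 ratio of Eed iKO-D over Ctrl-D in Krt5/Krt14-high cells against gene length in kb (log scale) for the 37 measured factors, coloured by direction; horizontal lines are the median of all genes in 4 length ranges (under 10, 10 to 30, 30 to 100 and at least 100 kb) in Krt5/Krt14-high, fibroblast-like and T cell-like cells. The lines rise with length in all 3 classes, while Pax9 and Sox11 lie well above the lines of their own length.

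Among other genes of the same families 50 of 109 had at least 20 UMIs in Krt5/Krt14-high cells, of which 23 were higher and 9 lower (median log2 ratio 0.50). Among those with large ratios, 2 are named for their level, a choice made after their values were seen. Foxq1, a forkhead factor of hair medulla and epithelia, stood at 20.5 and 121 CPM. Tbx1, a factor of the pharynx and hair stem cells, stood at 18.1 and 2.28 CPM. Of 12 PRC2 subunits 3 were higher and 1 lower, and the accessory subunit Jarid2 went from 199 to 647 CPM. Of 21 measured squamous identity factors 10 were higher and 3 lower: Pitx1 went from 31.7 to 118 CPM and Gata3 from 130 to 31.5 CPM. Of 8 Merkel and hair-cell factors only Prox1 had at least 20 UMIs, with 21 and 20. In the Cdkn2a locus, a known PRC2 target, Cdkn2b stood at 20.5 and 34.9 CPM and Cdkn2a at 61.2 and 84.9 CPM.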

How the data were processed

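For each of the 2 libraries the authors deposited a filtered matrix of UMI counts, whole numbers by gene and cell barcode. Libraries were made with the 10x Chromium 3' kit, version 2, per the labels' protocols. The aligner and counter was Cell Ranger, on whose version the sources differ. The extract protocol in the labels names 2.1.0, the headers of the matrices name 7.1.0, and the processing notes of the submitters name 8.0 and the genome mm10. Further, whether counting used strand is not given in the sources used here. The mm10 annotation GENCODE vM21 held 99.6% of the gene IDs.

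Cells with at least 500 genes and at most 15% mitochondrial UMIs were kept (93.6% of Ctrl-D and 96.5% of Eed iKO-D barcodes). Scrublet, run at an expected doublet rate of 0.08, marked 129 cells of Ctrl-D, which were removed. In the other library it marked 0 of 21484 cells and so had failed, and doublets remain among them. With scanpy 1.11.5, counts were scaled to 10000 per cell and logged. Leiden clustering at resolution 1.0 (2000 variable genes, 30 components, 15 neighbours, no batch correction) gave 28 clusters. A cluster was named when its mean marker score was at least 0.5, its lead over the next lineage at least 0.3 and at least 3 markers were raised. For epithelial-like clusters the rule was looser: a score above 0, no lead, and at least 3 raised markers. In all 10 clusters stayed unnamed, among them one led by Siglech and those where Gm42418 took more than 10% of UMIs while under 3 of the 10 leading genes were markers of the lineage. Cluster 6 was named epithelial-like only under that looser rule, with a score of 0.44 and T cell next at 0.25. The markers, the gate, this naming rule, the 53 genes and the gene lists were all chosen with earlier results of these data known.

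UMIs were summed per class and library and given as CPM. Classes needed 50 cells in a library. There was no test, because each group has 1 library. A factor counted as higher or lower at a 1.5-fold difference given 20 or more UMIs over both libraries. Log2 ratios used a prior of 0.5 UMI scaled to each library's total, a step set after the data were seen. Intervals are exact at 95%. The pooled immune-like cells were macrophage- or monocyte-, neutrophil- and T cell-like cells, and their level, set to at least 3 UMIs, served as a measure of free RNA. Counting and intervals were tested on simulated data.

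All 53 genes are accounted for, and those reaching 20 CPM in keratinocytes are described across clusters and classes. From the other lists the 3 largest ratios could be named. Cluster values of less abundant factors were chosen after they were seen. Alternatives covered the cell filter, doublets, resolution, gate, count minimum, scaling, fold, clusters left out and a guard against free RNA.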

Additional observations from a re-analysis of the deposited data

Results flagged for a closer look

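For 2 factors the ratio pointed opposite ways in Krt5/Krt14-high and fibroblast-like cells, and in neither case was the difference between the classes tested. Sox21 had a log2 ratio of -1.25 in Krt5/Krt14-high cells, while in fibroblast-like cells it had 1 UMI in the control library against 96, a ratio whose counting interval (0.593 to 135) spans 1. Its level there in Eed iKO-D was 6.86% of that in keratinocytes, and the epithelial markers in the same cells were at 5.80% (1.71% in Ctrl-D). Osr1 had a log2 ratio of 4.65 in Krt5/Krt14-high cells and -1.03 in fibroblast-like cells, where it is abundant.

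Unnamed cells, which entered only the alternative over any cell at 1% keratin UMIs, held factors above the level of every named class of the same library. Cluster 23, with Gm10800, Wif1 and Rspo3 among its leading genes, had 94 cells in Ctrl-D. In them Alx4, a limb and skull homeobox factor, reached 139 CPM (80 UMIs), Zic1, a neural and dermal zinc finger factor, 93.8 CPM (54 UMIs), and Foxd1, a stromal forkhead factor, 36.5 CPM (21 UMIs). The highest named classes were at 0.436, 17.0 and 0.449 CPM in the same order. Foxd1 also reached 4.31 CPM (20 UMIs) in cluster 24 of Eed iKO-D, 617 cells led by Apod, Igfbp5 and Eln, against 0.387 CPM in the highest named class.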

How the results depend on the processing

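No paired analysis was possible because each group has 1 library. Of the 16 factors with at least 2 CPM, followed singly over 16 alternatives, 0 of those counted as higher or lower changed direction. Dlx5, Irx3 and Irx5, all within 1.5-fold, changed sign, with log2 ratios from -0.03 to 0.83, -0.39 to 0.32 and -0.51 to 0.05. In Krt5/Krt14-high cells the count of 19 higher factors became 12 of 28 when 50 UMIs were required, against 38.3% of all genes. At that minimum 10 were lower, against 15.0% of all genes. The higher count was 10 in suprabasal-like clusters alone. It was 6 under the guard against free RNA, which kept 17 factors and left 4 of the 11 lower ones. For both of these the share of all genes is not given here. That guard removes factors whose highest other class is over 3 times the keratinocyte level, so fewer are counted by construction. All other alternatives gave 17 to 24 higher and 8 to 13 lower, among differing numbers of measurable factors. Over any cell at 1% keratin UMIs 24 of 42 were higher and 9 lower, against 42.1% and 14.7% of all genes. With the keratin threshold at 1% these were 17 and 9 of 34, against 42.6% and 14.1%. The median log2 ratio of 0.62 was 0.60 with the stricter cell filter, 0.51 with doublets kept, 0.60 at resolution 0.5 and 0.53 at resolution 2.0. It was 0.71 without a keratin threshold, 0.56 at 1% and 1.12 over any cell at 1%, 0.74 at 10 UMIs and 0.17 at 50 UMIs. Centring gave 0.23. Leaving out clusters 6, 12 and 13 gave 0.96, 0.59 and 0.55, basal-like clusters alone 0.56, suprabasal-like alone 0.18, and the guard 0.35. The median of the 5 shared clusters, 0.50, was 0.75 over the 3 of them in which both libraries had 100 cells or more. In fibroblast-like cells the 7 lower factors became 12 with doublets kept, 11 at 10 UMIs and 4 at 2-fold. Their median log2 ratio of 0.41 became 0.46 with the stricter filter, 0.11 with doublets kept, 0.38 at either resolution, 0.27 at 10 UMIs or when centred, and 0.25 over per-cell means. The 8 factors highest in Krt5/Krt14-high cells of Ctrl-D became 17 as shares of thinned cells. For shifts not explained by fewer genes or cells the cause was not tested. Depth limits most factors: 21 of the 37 counted were under 2 CPM in both libraries, and doublets could not be removed from Eed iKO-D.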

Other observations

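In cluster 23 of Ctrl-D the dermal factors En1 (146 CPM) and Tbx15 (228 CPM) were also above every named class, at 2.36 and 1.41 times the highest of them, beside Ebf1 at 1156 CPM and Meis2 at 104 CPM. Wif1 and Rspo3, secreted regulators of Wnt signalling, are among the leading genes of these 94 cells, and the cluster was given no name. In Eed iKO-D the same cluster had 58 cells, with Meis2 at 132 CPM.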
